A study of Saccharomyces cerevisiae with 12 samples.

Results

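The 7 genes of the histidine pathway of *Saccharomyces cerevisiae*, *HIS1* to *HIS7*, were followed at the level of messenger RNA in 6 environments. They were taken by systematic name. All 7 were present among the 7127 identifiers of the deposited tables, and all 7 passed the filter of a mean of at least 10 counts that left 6082 identifiers for testing. The strain was BY4743, a diploid of the BY4741 and BY4742 background. It is homozygous for the deletion alleles *his3Δ1*, *leu2Δ0* and *ura3Δ0* and keeps single copies of *LYS2* and *MET17*, and this background was common to all groups. The environments were the rich medium YPD at 24°C (YPD24) and 32°C (YPD32), the same medium with 3% glycerol instead of glucose at 30°C (YPG), and synthetic complete medium (SC), used at 30°C (SC30), at 37°C (SC37), and at 30°C after 40 g/l of NaCl had been added (NaCl). Each environment had 2 libraries from independently started small cultures in titration plates, taken late in growth but before the stationary phase, which makes 12 libraries. The medium is given as YPD in the labels of the YPG libraries, and these were treated as YPG by their titles.

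Yeast makes histidine from PRPP (phosphoribosyl pyrophosphate) and ATP in a linear pathway that runs through imidazole glycerol phosphate and histidinol. *HIS1* encodes the first enzyme, ATP phosphoribosyltransferase, which histidine inhibits, and *HIS4* encodes a protein with 3 activities that serve early and last steps. *HIS6* encodes the isomerase of the middle of the pathway. *HIS7* encodes the glutamine amidotransferase and cyclase that releases AICAR, an intermediate of purine synthesis. *HIS3*, *HIS5* and *HIS2* encode the dehydratase, the aminotransferase and the phosphatase of the later steps. Several of these genes are classical targets of the general amino acid control, in which the activator Gcn4 binds TGACTCA and close variants of it. At *HIS4* the factors Bas1 and Pho2 act as well. Because *HIS3* is partly deleted in BY4743, the cells cannot complete the pathway and take up histidine from the medium in all 6 environments.

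The genes lie on 6 chromosomes of the R64 reference, with *HIS5* and *HIS6* both on IX. *HIS1* (YER055C) spans chrV:264892-265785, *HIS4* (YCL030C) chrIII:65934-68333, *HIS6* (YIL020C) chrIX:314035-314820 and *HIS7* (YBR248C) chrII:714807-716465, all on the minus strand. *HIS2* (YFR025C) spans chrVI:203743-204750, also on the minus strand. *HIS3* (YOR202W) spans chrXV:721946-722608 and *HIS5* (YIL116W) chrIX:142928-144085, both on the plus strand. These spans run from start to stop codon, and the annotation has no other gene that overlaps any of them.

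The core of the Gcn4 motif, TGACTC, was searched on both strands in the 500 bases before each start codon, since it is the sequence the general control is known to use. The same 6 bases are also part of the motif of Bas1, so a match does not tell these factors apart. At least 1 match was found for 6 of the 7 genes, and for 12.7% of the 6000 windows of this length before nuclear protein-coding genes. There were 3 matches each at *HIS4* and *HIS5*, 2 each at *HIS1*, *HIS3* and *HIS7*, 1 at *HIS6* and none at *HIS2*. Of those at *HIS3*, the match 286 bases before the start codon lies within the neighbour *MRM1*, which is 237 bases away. At *HIS2* the next gene upstream is 173 bases away, so its window reaches that gene. At least 2 matches were found in 1.43% of all windows. The longer form TGACTCA occurred at *HIS1*, *HIS4*, *HIS5* and *HIS7*, and in 4% of all windows. The following 30-base windows show for each gene the match to the longer form where there is one, and otherwise the match nearest to the start codon, read 5′ to 3′ on the strand of the gene with the 6-base core, or its reverse complement, in capitals.
HIS1, chrV:265951-265980: aagcttccaagtGAGTCAcctctaccgttg
HIS4, chrIII:68515-68544: acccatgcacagTGACTCacgtttttttat
HIS6, chrIX:314897-314926: gtctagtgtgcaGAGTCAtacggaataatt
HIS7, chrII:716678-716707: caaaaaaaaattGAGTCAtatcgtagcttt
HIS3, chrXV:721812-721841: ccacctagcggaTGACTCtttttttttctt
HIS5, chrIX:142714-142743: tcttggatctgtTGACTCacttcaattgat
The first base of the core lies 183 bases before the start codon at *HIS1*, 199 at *HIS4*, 94 at *HIS6*, 230 at *HIS7*, 122 at *HIS3* and 202 at *HIS5*. The match at *HIS6* is the nearest to a start codon among all 13 matches. The windows are from the reference sequence, and binding was not measured.

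The deposited counts had been brought to 1 library size by the authors. From the worth of 1 read in the tables, between 12364100 and 15500500 fragments per library fell on genes, where a fragment is a read pair by the methods of the study, although the labels call the libraries non-paired. Replicates agreed least with NaCl, with a median absolute difference of 0.22 log2 units over all tested genes against 0.08 to 0.12 in the other environments. *URA3* and *LEU2*, both deleted in the strain, were listed at 0 in all 12 libraries. The 7 genes together took 0.169% ± 0.010 of all counts in SC30 (SD, n = 2). Their share was 0.205% ± 0.0054 in SC37, 0.0449% ± 0.0059 with NaCl and 0.0932% ± 0.00072 in YPG. It was 0.243% ± 0.0034 in YPD24 and 0.383% ± 0.0090 in YPD32. The share was thus highest in warm rich medium and lowest under salt, and the 2 libraries of an environment did not overlap with those of any other.

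*HIS1*, at the entry of the pathway, had 6151 and 6482 counts in the libraries of SC30, 6772 and 6432 in SC37, and 1057 and 1224.4 with NaCl. It had 3445 and 3614 counts in YPG, 10688 and 10330 in YPD24, and 15957 and 15988 in YPD32. The libraries of SC30 and SC37 overlapped, and all other environments were apart from each other. The highest environment mean was 14 times the lowest, the widest range among the 7 genes.
*HIS4* had 7753 and 8481 counts in SC30, 12641 and 11943 in SC37, and 2058 and 2569 with NaCl. It had 2393 and 2208 in YPG, 14629 and 14798 in YPD24, and 21610.5 and 23059 in YPD32. Salt and glycerol overlapped at the low end, and the other 4 environments were each apart. The ratio between the highest and lowest means was 9.71.
*HIS6* had 636 and 702 counts in SC30, 775 and 901 in SC37, and 629 and 585 with NaCl. It had 1092 and 1139.5 counts in YPG, 644 and 705 in YPD24, and 699 and 698 in YPD32. *HIS6* was high in YPG and next in SC37, and the other 4 environments all lay between 585 and 705. Its ratio between the highest and lowest means was 1.84, the smallest among the 7 genes, and only 21.1% of all tested genes had a smaller one.
*HIS7* had 3292 and 3732 counts in SC30, 2843 and 2669 in SC37, and 517 and 543 with NaCl. It had 3119.8 and 2993 in YPG, 3152 and 3036 in YPD24, and 4872 and 4974 in YPD32. Salt was the low extreme by a wide margin, while YPG and YPD24 overlapped. The ratio between the highest and lowest means was 9.29.

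**Figure D1:**
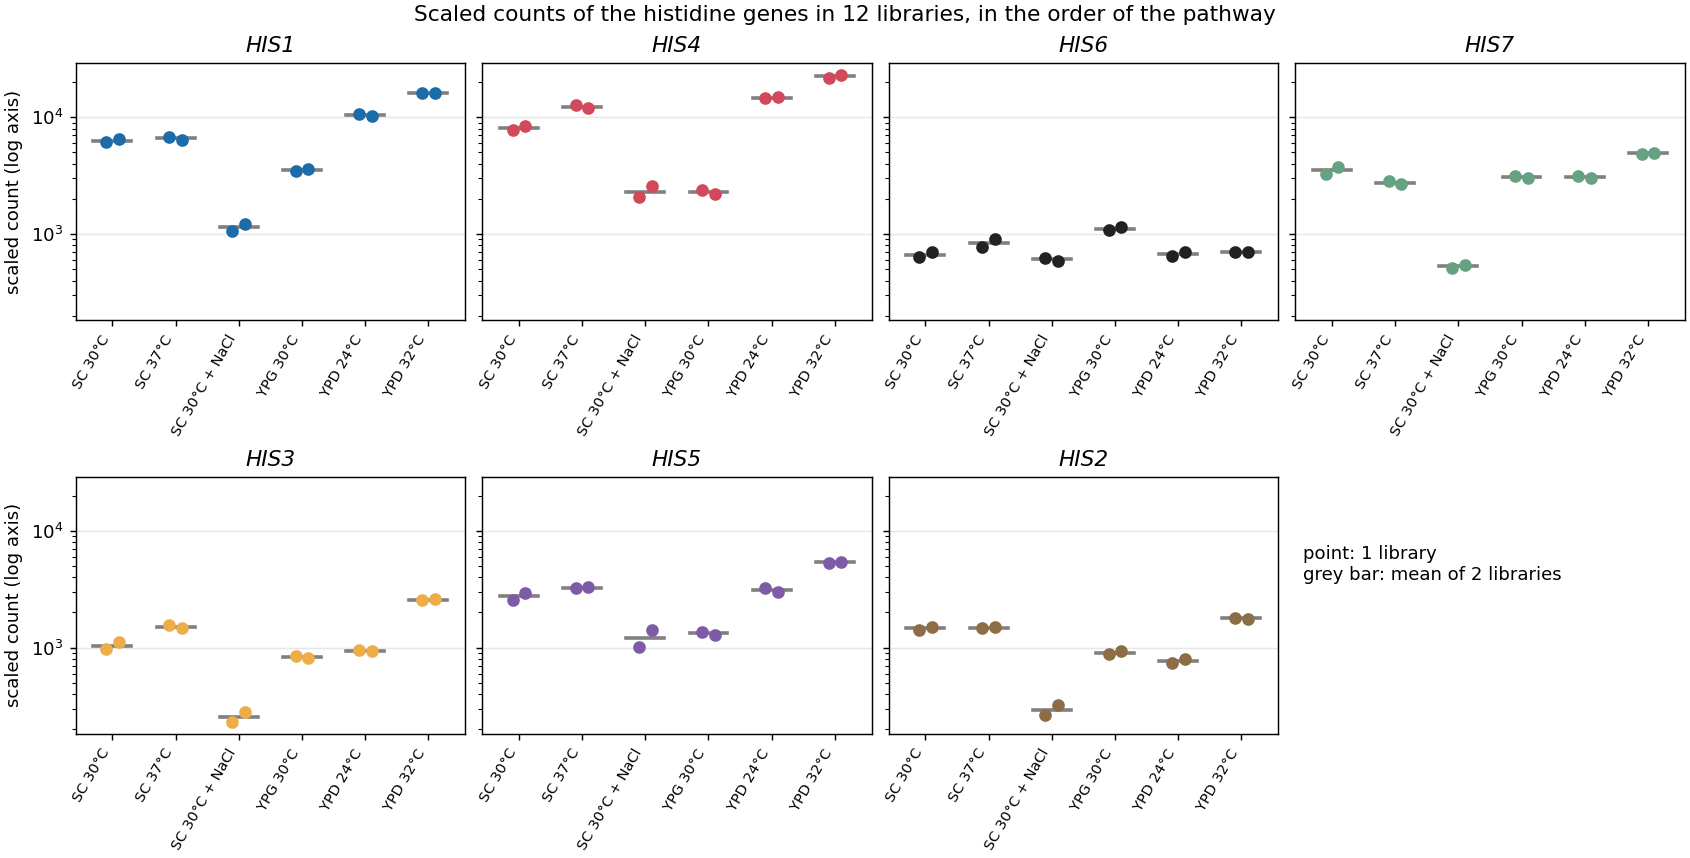
Scaled counts (log axis) of each gene in the 6 environments, 1 panel a gene in the order of the pathway; points are the 2 libraries of an environment and grey bars their mean. The YPD32 libraries are the highest in every panel but that of *HIS6*, which stays between 585 and 1139.5 counts throughout.

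*HIS3*, the dehydratase gene that carries the deletion, was still listed with reads in every library. It had 971 and 1108 counts in SC30, 1563 and 1462 in SC37, and 231 and 284 with NaCl. It had 845 and 812 counts in YPG, 955 and 934 in YPD24, and 2537 and 2612 in YPD32. The ratio between the highest and lowest means was 9.99, within the range of the genes that are intact. The tables do not show which part of the gene the reads came from.
*HIS5* had 2579.6 and 2918 counts in SC30, 3222 and 3278 in SC37, and 1008 and 1414 with NaCl. It had 1364 and 1291 in YPG, 3258 and 2970.0 in YPD24, and 5309.5 and 5446 in YPD32. Salt and YPG overlapped at the low end, and the ratio of its NaCl libraries, 1.40, was the largest between replicates of any of the 7 genes.
*HIS2* had 1424 and 1509 counts in SC30, 1469 and 1496 in SC37, and 265 and 322 with NaCl. It had 877 and 933 counts in YPG, 743 and 798 in YPD24, and 1811 and 1756 in YPD32. After *HIS6* it had the least difference between SC30 and YPD32. The highest environment mean was 6.08 times the lowest at *HIS2* and 4.44 times at *HIS5*. Over all tested genes the median of such ratios was 2.98, with 1 count added to each mean.

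By the moderated F statistic of limma, computed on log2(count + 1), all 7 genes varied with the environment, with the largest adjusted p, 2.63e-05, at *HIS6*. In this test 96% of all tested genes passed, so that the call itself does not set the pathway apart. The environments were then compared in pairs with limma, with 1 fit over all 12 libraries. Differences are on the scale of log2(count + 1), each with its standard error (SE) and with a p adjusted over all 6082 identifiers. The shares of all tested genes that passed are for the authors' scaling throughout. The 5 comparisons with SC30 share its 2 libraries, and 3 comparisons share those of YPD32. YPD24 and YPD32 differ from SC30 in both medium and temperature, and YPG differs from it in both medium and carbon source. The parts of these cannot be told apart. Scaling by the median of ratios, in place of the authors' scaling, moved the median difference of all tested genes from -0.22 to -0.02 for NaCl and from -0.11 to 0.01 for YPG against SC30, from -0.10 to 0.00 for YPG against YPD32, and more for both comparisons of YPD24.

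With 40 g/l of NaCl, 6 of the 7 genes fell and none rose. In this comparison 80.9% of all tested genes passed, 33.8% higher and 47.2% lower. The median difference of the 7 genes was -2.01, against -0.22 over all tested genes. *HIS7* fell most, to 0.151 of its level in SC30, a difference of -2.72 (SE 0.08, adjusted p = 5.41e-13, limma). *HIS1* fell by 2.47 (adjusted p = 1.37e-12, limma), and the differences of *HIS2*, *HIS3* and *HIS4* were -2.32, -2.01 and -1.82. *HIS5* fell least of the 6, with a difference of -1.20 (SE 0.13, adjusted p = 4.32e-07, limma). *HIS6* had 607 ± 31.1 counts with NaCl against 669 ± 46.7 without (SD, n = 2). Its difference of -0.14 had a 95% interval from -0.38 to 0.10 (adjusted p = 0.254, limma), and with median-of-ratios scaling it was 0.06.

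In SC37, 3 of the genes rose and 1 fell, and 23.4% of all tested genes passed, 11.9% higher and 11.6% lower. The median difference was 0.24 for the 7 genes and 0.02 over all tested genes. *HIS4* rose to 1.51 times its level in SC30, a difference of 0.60 (SE 0.10, adjusted p = 0.000617, limma), and *HIS3* to 1.46 times (difference 0.54, SE 0.11, adjusted p = 0.00294, limma). *HIS7* fell by 0.35 (adjusted p = 0.00839, limma). *HIS6* rose by 0.32, close to the threshold (adjusted p = 0.0480, limma). *HIS1*, *HIS2* and *HIS5* had differences of 0.06, 0.02 and 0.24, with adjusted p of 0.640, 0.939 and 0.184 from limma. Of these, *HIS5* passed with upper-quartile scaling (0.29, adjusted p = 0.0406, limma). The call of *HIS6* was lost without replicate 1 of SC30 (difference 0.25, adjusted p = 0.269, limma), without replicate 2 of SC30 (0.39, adjusted p = 0.0784) and without replicate 2 of SC37 (0.21, adjusted p = 0.342). It was also lost with no filter on low values (adjusted p = 0.05002, limma), with no mean-variance trend (0.05062) and with only the compared environments in the fit (0.07232). The call of *HIS7* was lost without replicate 2 of SC30 (-0.26) and without replicate 2 of SC37 (-0.30). Fewer of all tested genes passed in these fits with 1 library left out as well.

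In YPD32 against SC30, 6 of the genes rose and none fell, where 38.2% of all tested genes passed, 16.7% higher and 21.5% lower. The medians were 0.97 for the 7 genes and -0.01 for all tested genes. *HIS4* rose to 2.75 times (difference 1.46, SE 0.10, adjusted p = 3.43e-08, limma), *HIS1* to 2.53 times (difference 1.34, SE 0.08) and *HIS3* to 2.48 times (difference 1.31, SE 0.11). *HIS5* rose by 0.97 and *HIS7* by 0.49 (adjusted p = 2.36e-05 and 0.000318, limma). The rise of *HIS2* was 0.30 with median-of-ratios scaling (adjusted p = 0.00417, limma). With the authors' scaling it was small, 0.28 with SE 0.11 (adjusted p = 0.0495, limma). It no longer passed without either library of SC30 (0.24 without replicate 1 and 0.32 without replicate 2) or of YPD32 (0.26 without replicate 1 and 0.30 without replicate 2), with adjusted p between 0.0992 and 0.216 from limma, nor with no filter on low values (adjusted p = 0.0570) or no mean-variance trend (0.0594). *HIS6* had 698 ± 0.869 counts in YPD32, a difference of 0.06 with a 95% interval from -0.17 to 0.30 (adjusted p = 0.687, limma).

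In YPD24 against SC30 the genes went different ways. *HIS4* rose to 1.81 times (difference 0.86, SE 0.10, adjusted p = 6.15e-06, limma) and *HIS1* to 1.66 times (difference 0.73, SE 0.08, adjusted p = 4.74e-06). *HIS2* fell to 0.525 of its level (difference -0.93, SE 0.11, adjusted p = 4.91e-06, limma). *HIS5*, *HIS6*, *HIS3* and *HIS7* did not pass, with differences of 0.18, 0.01, -0.13 and -0.18. In all, 2 of the 7 genes rose and 1 fell, where 56% of all tested genes passed, 10.4% higher and 45.6% lower. The median difference of all tested genes was -0.29 here, and median-of-ratios scaling moved it to -0.00091 and the share of higher among all calls from 18.6% to 48.6%. With this scaling *HIS5* (0.47) and *HIS6* (0.30) passed as higher as well, the differences of *HIS3* and *HIS7* turned to 0.15 and 0.11 without passing, and *HIS4*, *HIS1* and *HIS2* kept their calls with 1.15, 1.02 and -0.64. *HIS7* passed as lower without replicate 1 of SC30 (-0.27, adjusted p = 0.0378, limma).

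In YPG against SC30, 5 of the genes fell and *HIS6* rose. In this comparison 66.9% of all tested genes passed, 38.7% lower and 28.1% higher. The medians were -0.70 for the 7 genes and -0.11 for all tested genes. *HIS4* fell most, to 0.283 of its level (difference -1.82, SE 0.10, adjusted p = 1.21e-09, limma). The other falls were those of *HIS5* (-1.05), *HIS1* (-0.84), *HIS2* (-0.70) and *HIS3* (-0.32). *HIS6* rose to 1.67 times (difference 0.74, SE 0.11, adjusted p = 3.32e-05, limma). *HIS7* had a difference of -0.20 with a 95% interval from -0.38 to -0.02 (adjusted p = 0.0504, limma), and it passed without replicate 1 of SC30 (-0.29, adjusted p = 0.0237), with a pseudocount of 0.1, with no filter or a minimum mean of 100, and with only the compared environments (adjusted p between 0.0335 and 0.0497, limma). The call of *HIS3* was lost without replicate 2 of SC30 (-0.23, adjusted p = 0.172, limma), without replicate 2 of YPG (-0.29, adjusted p = 0.0914) and with median-of-ratios scaling (-0.20, adjusted p = 0.0613).

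YPG was also set against YPD32, which is the same rich medium with glucose. All 7 genes passed, 6 lower and 1 higher, where 63.4% of all tested genes passed, 36.5% lower and 26.9% higher. The temperature differs by a little between these environments too, and its part cannot be told apart from that of the carbon source. *HIS4* was at 2300.3 ± 131 counts in YPG and 22335 ± 1025 in YPD32 (SD, n = 2), a difference of -3.28 (SE 0.10, adjusted p = 2.22e-12, limma). The differences of *HIS1*, *HIS5*, *HIS3*, *HIS2* and *HIS7* were -2.18, -2.02, -1.63, -0.98 and -0.69. *HIS6* rose by 0.67 (SE 0.11, adjusted p = 8.94e-05, limma).
In YPD24 against YPD32, 6 genes fell and none rose, where 49.3% of all tested genes passed, 6.71% higher and 42.6% lower. The medians were -0.67 for the 7 genes and -0.26 for all tested genes. *HIS3* fell to 0.367 of its level in YPD32 (difference -1.45, SE 0.11, adjusted p = 2.18e-07, limma) and *HIS2* to 0.432 (-1.21, SE 0.11). The differences of *HIS5*, *HIS7*, *HIS1* and *HIS4* were -0.79, -0.67, -0.60 and -0.60. Median-of-ratios scaling moved the median of all tested genes to 0.0025 and the share of higher among all calls from 13.6% to 50.7%. With it these 6 genes still passed as lower, with differences from -1.18 (*HIS3*) to -0.34 (*HIS4*). *HIS6* had a difference of -0.05 (95% interval from -0.29 to 0.18, adjusted p = 0.715, limma), which became 0.21 with this scaling without passing.

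**Figure D2:**
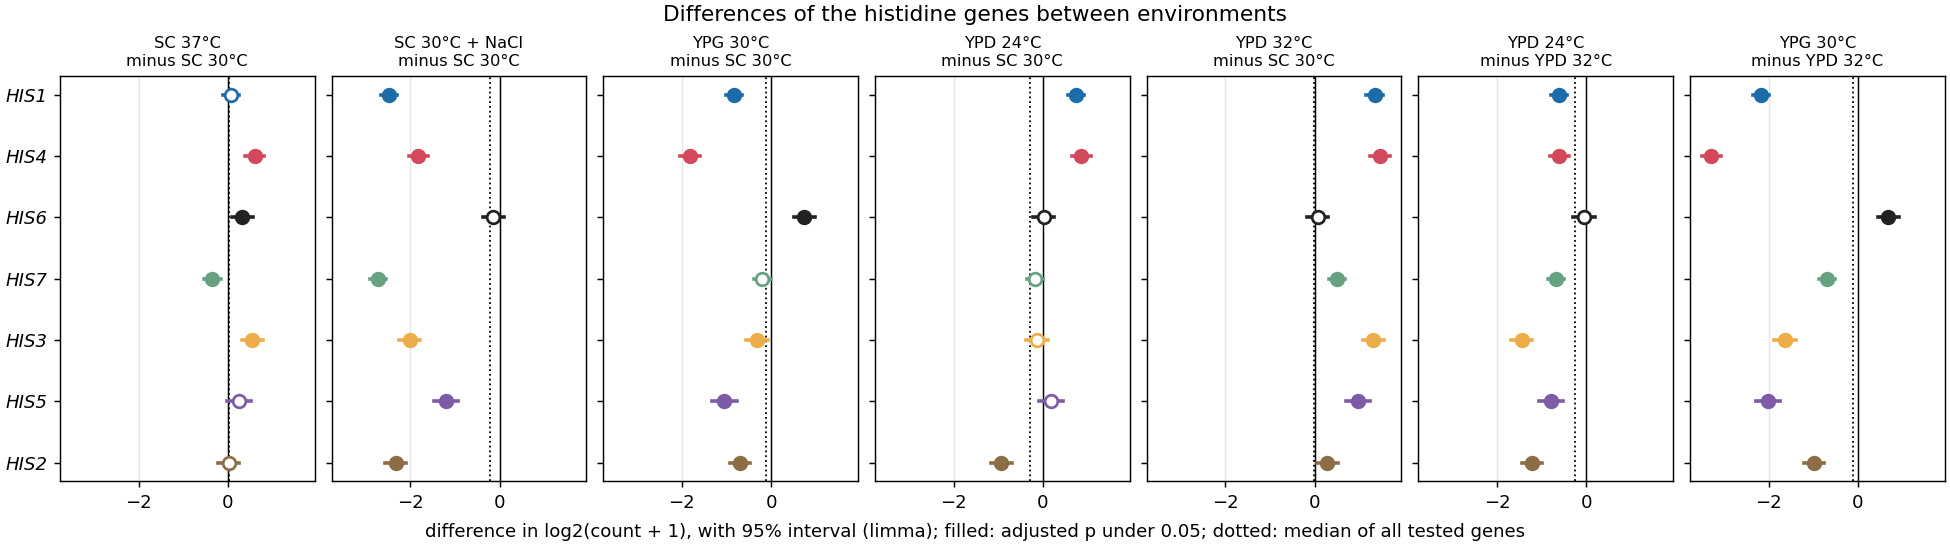
Difference in log2(count + 1) of each gene in 7 comparisons, with the 95% interval from limma; filled points have an adjusted p under 0.05, the solid line marks 0 and the dotted line the median of all tested genes. *HIS6* lies to the right of the other 6 genes with NaCl and in YPG, at -0.14 and 0.74 against SC30.

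Within the pathway, the genes were compared by FPKM, which divides by length. *HIS1* had the highest level in all 6 environments, from 87.3 ± 9.04 FPKM with NaCl to 1222 ± 1.70 in YPD32 (SD, n = 2). In SC30 the order below *HIS1* (483 ± 17.9) was *HIS4* (231 ± 14.7), *HIS5* (162 ± 14.1), *HIS7* (145 ± 12.8), *HIS3* (107 ± 10.03), *HIS2* (99.6 ± 4.09) and *HIS6* (58.2 ± 4.07). There *HIS5* and *HIS7* overlapped in their libraries, as did *HIS3* and *HIS2*. In YPD32 *HIS4* followed with 637 ± 29.2 FPKM and *HIS6* was last with 60.8 ± 0.0757, and no neighbours in the order overlapped.
The order changed in YPG. *HIS7* was second there with 126 ± 3.71 FPKM and *HIS6* the third with 97.1 ± 2.91, followed by *HIS3* (85.5 ± 2.42) and *HIS5* (78.5 ± 3.06). *HIS4* was near the end with 65.6 ± 3.74 and overlapped with *HIS2* (61.4 ± 2.70). With NaCl, *HIS1*, *HIS5* (71.6 ± 17.0) and *HIS4* (65.9 ± 10.3) overlapped in turn. *HIS6* was the fourth with 52.8 ± 2.71 FPKM, and *HIS3*, *HIS7* and *HIS2* lay below 30 FPKM, at 26.6 ± 3.90, 21.9 ± 0.742 and 19.9 ± 2.73. For all 7 genes the counts were in the same proportion to the product of FPKM and annotated coding length, which is 663 bases at *HIS3*. The deleted bases of the strain were therefore counted in, and the level of *HIS3* per length is understated in comparison with the others.

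**Figure D3:**
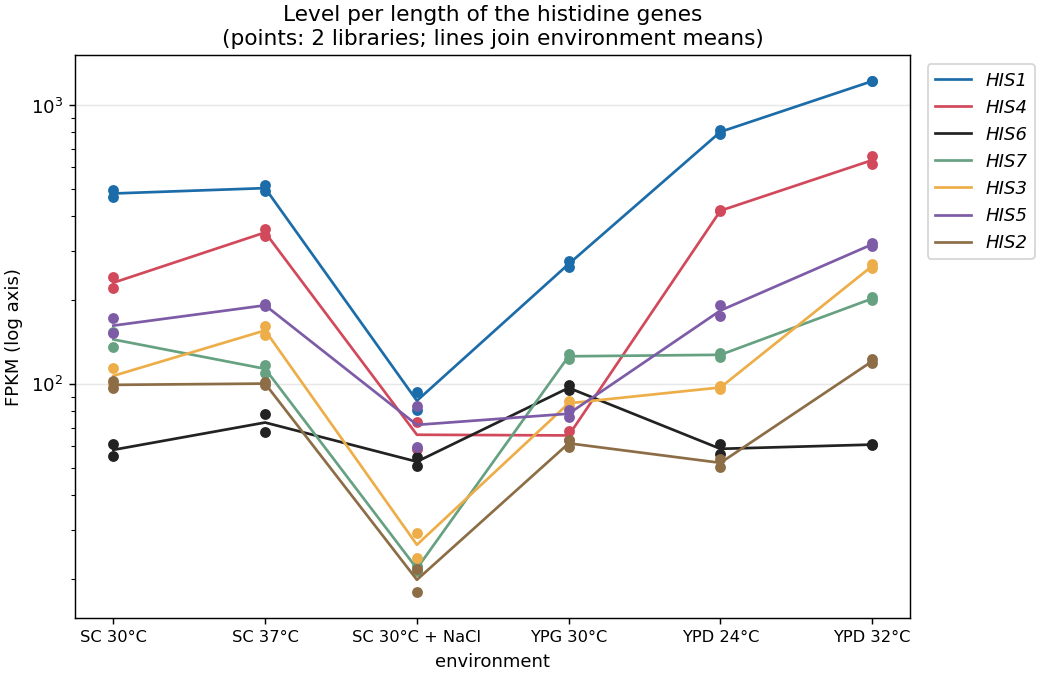
FPKM (log axis) of the 7 genes in the 6 environments; points are libraries and lines join environment means. *HIS1* is the uppermost line throughout, and *HIS6* goes from the lowest level in SC30 to the third in YPG.

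The 6 genes other than *HIS6* were correlated over the libraries, though they did not move alike in every comparison. In YPD24 against SC30 *HIS4* rose by 0.86 and *HIS2* fell by 0.93, and in SC37 *HIS4* rose by 0.60 and *HIS7* fell by 0.35. Over the 12 libraries, which form 6 pairs, Pearson's r of log2(count + 1) was between 0.67 (*HIS4* and *HIS7*) and 0.98 (*HIS4* and *HIS5*) for the 15 pairs of these genes, with a median of 0.90. For the 6 pairs that include *HIS6* it was between -0.30 (with *HIS4*) and 0.35 (with *HIS7*). These values describe the libraries, which share their scaling, and were not tested. Among 5683 other annotated genes, those most like the mean of the 7 genes by the same r over 12 libraries were YKL033W-A (0.994), *ERG12* (0.994), YDR209C (0.992), *SEC26* (0.985) and *ERG2* (0.984). *ERG12* and *ERG2* encode mevalonate kinase and sterol isomerase of the ergosterol pathway, and *SEC26* a subunit of the COPI coat. *ERG12* had environment means of 525 counts with NaCl, 1034 in YPG, 1714 in SC30 and 2802 in YPD32. In all, 387 of the 5683 genes had an r of at least 0.9, so that such likeness was not particular to the 5 named here.

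Genes that supply or drain the pathway were taken from a list of 7. *PRS1* to *PRS5* encode subunits of PRPP synthetase, and *ADE16* and *ADE17* encode the enzymes that carry AICAR on towards purines. With NaCl all 7 fell, where 80.9% of all tested genes passed and 47.2% were lower, and the largest difference was that of *ADE17*, -2.96 (adjusted p from limma under the threshold, as for all genes said to rise or fall in the following). The synthetase genes had differences of -1.87 (*PRS4*), -1.57 (*PRS3*), -1.18 (*PRS5*), -1.03 (*PRS1*) and -0.33 (*PRS2*), and *ADE16* had -0.40. With median-of-ratios scaling *PRS2* (-0.13) and *ADE16* (-0.20) no longer passed. In YPG against SC30 the list split, and 5 rose and 2 fell, where 66.9% of all tested genes passed, 28.1% higher and 38.7% lower. All synthetase genes rose, from 0.31 (*PRS2*) to 1.52 (*PRS3*), whereas *ADE17* (-3.27) and *ADE16* (-0.87) fell. *ADE17* had 12695 and 20021 counts in SC30, 1573 and 1736 in YPG, and 37825 and 36640 in YPD24. Its 2 libraries in SC30 thus differed more than those of any member of the pathway. It was higher in YPD24 than in SC30 by 1.22 and than in YPD32 by 1.09.

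Of the 7 listed genes of histidine uptake and charging, 6 were tested. *HIP1*, the histidine permease, had 4570 and 4582 counts in SC30 and 1274 and 1634 with NaCl, and fell by 1.66. It did not differ past the threshold in SC37 (-0.09) or in YPG (0.0035), and was lower in YPD32 (-0.31) and YPD24 (-0.54). *HTS1*, the histidyl-tRNA synthetase, fell by 2.86 with NaCl and was higher in YPG by 0.58 and in YPD32 by 0.48. *GAP1*, the general amino acid permease, had 18829 and 19470 counts in YPG and 3351 and 4377 in SC30. It rose by 2.32 in YPG and fell in SC37 (-2.50), with NaCl (-1.36), in YPD32 (-2.04) and in YPD24 (-1.68). *TAT1*, a permease for several amino acids, was higher in SC37 (0.74), with NaCl (0.96), in YPG (1.69) and in YPD32 (0.76). With median-of-ratios scaling *TAT1* (0.55) and *HTS1* (0.43) also passed as higher in YPD24 against SC30, and *HIP1* passed there with a smaller difference (-0.25). The vacuolar transporter genes moved less, and against SC30 *VBA1* was between -0.53 and -0.10 and *VBA2* between -0.24 and 0.77. *VBA3* was between 0.938 and 11.2 counts in the 12 libraries and was not tested.

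Of 8 regulators, all passed with NaCl, 7 lower and *PHO2* higher by 0.61, where 80.9% of all tested genes passed, 33.8% higher and 47.2% lower. *GCN4*, the activator of the general control, whose protein is regulated mainly by translation, had 12750 and 12529 counts in SC30 and 29537 and 26521 in YPG. It rose by 1.15 in YPG, by 0.53 in YPD24 and by 0.42 in YPD32, and fell by 0.54 with NaCl. Its messenger was thus highest in YPG. *BAS1* rose by 0.99 in YPD32 and 0.81 in YPG, and fell by 1.13 with NaCl. Its level in YPD24 was below that in YPD32 (-1.05), and no other of the 8 passed in that comparison. Over all tested genes 6.71% were higher and 42.6% lower there. Median-of-ratios scaling moved the share of higher among all calls from 13.6% to 50.7%. With that scaling 6 others of the regulators passed as higher and *BAS1* stayed lower (-0.79). *GCN1* and *GCN20*, which activate the kinase Gcn2, had differences of -1.94 and -1.79 with NaCl, and *GCN2* itself had -0.44. The general factors *ABF1* and *RAP1* had -0.93 and -0.26, of which that of *RAP1* did not pass with median-of-ratios scaling (-0.06). In SC37 *ABF1* alone passed (-0.65), where 23.4% of all tested genes passed, 11.9% higher and 11.6% lower.

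**Figure D4:**
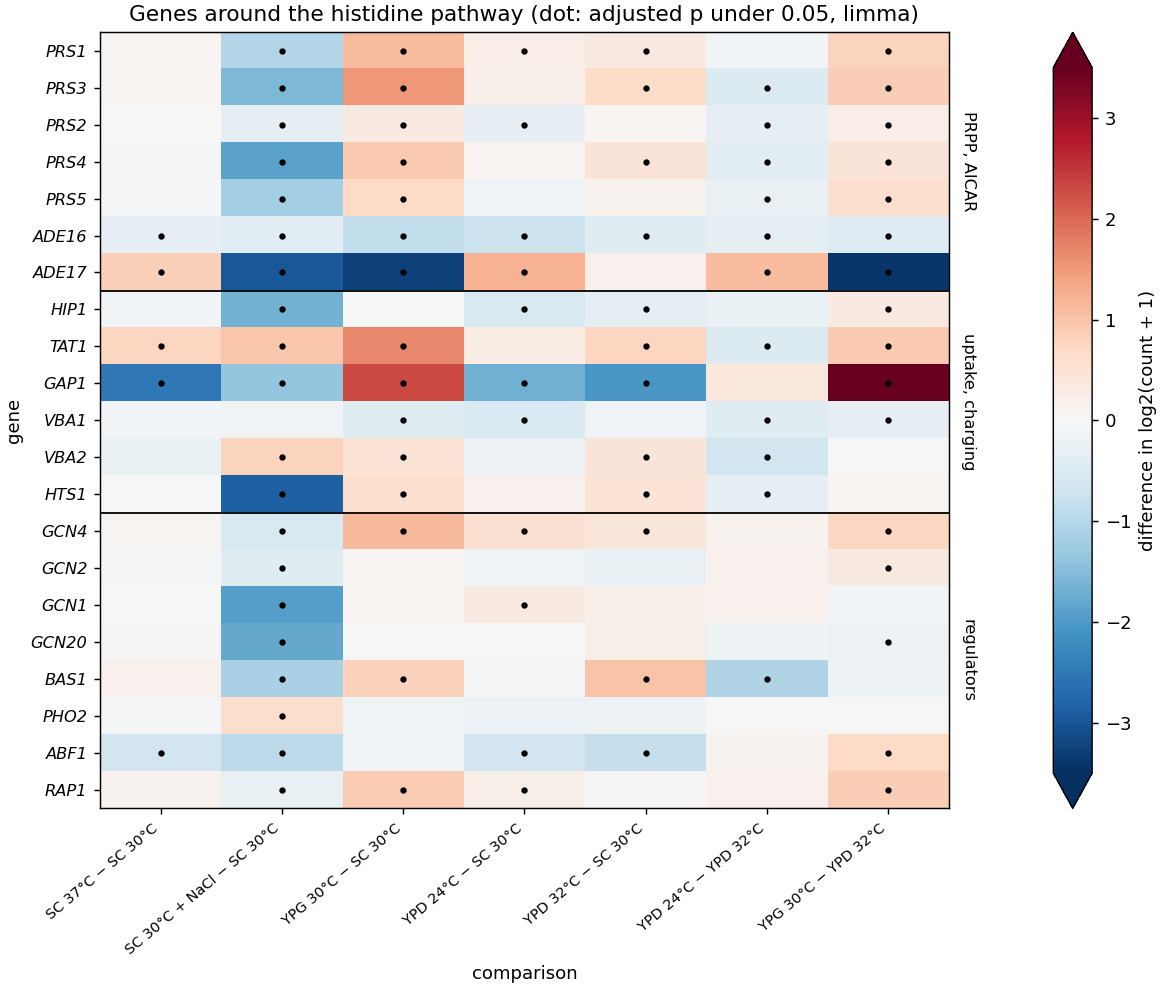
Difference in log2(count + 1) (colour) of 21 genes around the pathway in 7 comparisons; dots mark an adjusted p under 0.05 from limma, and lines part the 3 lists. The column of NaCl is the only one in which all 8 regulators carry a dot, in the comparison in which 80.9% of all tested genes passed against 23.4% to 66.9% in the others, and *GAP1* and *ADE17* have the largest differences between YPG and YPD32, 4.36 and -3.41.

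Known Gcn4 targets in other amino acid pathways, 31 genes, gave counts to set beside those of the histidine genes. With NaCl 28 fell and 2 rose (26 and 3 with median-of-ratios scaling), where 47.2% of all tested genes were lower and 33.8% higher, and their median difference was -1.71 against -2.01 for the histidine genes. The largest falls were those of *LYS9* (-5.85) and *LYS12* (-4.39) of lysine synthesis, and *CPA1* (2.12), of carbamoyl phosphate synthesis, and *ARO3* (0.19), of aromatic amino acid synthesis, rose. In YPD32 21 rose and 6 fell, where 16.7% of all tested genes were higher and 21.5% lower, with a median of 0.73 against 0.97. *ASN1*, an asparagine synthetase, rose by 1.88 and *HOM3*, the aspartate kinase, by 1.78, while *LYS9* (-3.88) and *LYS20* (-3.33) fell most. In YPD24 against YPD32 24 fell and none rose (20 and 1 with median-of-ratios scaling), where 42.6% of all tested genes were lower and 6.71% higher, with a median of -0.64 against -0.67, and *ARG3* (-4.91) and *ARG1* (-3.43) of arginine synthesis fell most. In YPD24 against SC30, 12 rose, led by *ASN1* (1.41) and *BAT1* (1.13), and 12 fell, led by *ARG3* (-4.69) and *LYS9* (-4.27), against 15 and 10 with median-of-ratios scaling. Over all tested genes 10.4% were higher and 45.6% lower there.
In YPG against SC30, 13 of the 31 rose and 12 fell (13 and 8 with median-of-ratios scaling), where 28.1% of all tested genes were higher and 38.7% lower. Their median was 0.04, against -0.70 for the histidine genes. *ASN1* (2.16) and *ILV2* (1.72) rose most, and *LYS9* (-1.79) and *HOM6* (-1.26) fell most. Against YPD32, 8 rose in YPG and 17 fell, where 26.9% of all tested genes were higher and 36.5% lower, with a median of -0.24 against -1.63, with *LYS20* (2.61) and *LYS9* (2.09) highest and *SER1* (-1.41) among the lowest. In SC37, 6 rose and 8 fell, where 11.9% of all tested genes were higher and 11.6% lower, with *ARG5,6* (0.90) and *ARG3* (0.76) highest and *LYS20* (-3.93) and *LYS9* (-3.91) lowest. Whether the histidine genes differ from this list was not tested.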

How the data were processed

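Messenger RNA was analysed for BY4743 in 6 environments with 2 libraries in each. According to the methods of the study and the processing notes, the authors ran fastQC on the reads, mapped these with Hisat2 to the yeast genome of Ensembl (build R64), sorted them with SAMtools (version 1.9), and quantified genes with cuffquant and cuffnorm, without pooling replicates. The authors deposited counts as a signal per gene, estimates that were scaled to a common library size and need not be whole. The authors also deposited FPKM values, which here were proportional to the counts per length. Whether reads were counted by strand is not given in the sources used here. The study's own test needs whole counts. In each library only 74.2% to 82% of values between 0.5 and 20 came out as multiples of a single step (tolerance 0.01 of the step), so limma was used, as the written design provided for this case.

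Identifiers with a mean of at least 10 counts were tested with limma 3.58.1 (R 4.3.3) on log2(count + 1), with a mean-variance trend and the environment as the only factor, in 7 comparisons. The p-values were adjusted by the Benjamini-Hochberg method over all tested identifiers in each comparison (threshold 0.05). The fit was tested on simulated data. The error given for a mean is the SD of 2 libraries from separately started cultures. The members and gene lists were chosen with earlier results of these data known. Named genes are the 7 members, the 5 genes most like their mean, all genes of 3 lists, and the 2 largest rises and falls in each comparison of the list of Gcn4 targets, of which 1 result is not reported here. Alternatives were other pseudocounts, filters, scalings (median of ratios, upper quartile), the FPKM table, no trend, only the compared environments, a replicate block and each library left out. Sequences and positions are from RefSeq R64. Figures used Python 3.11.15 and matplotlib 3.10.9.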

Additional observations from a re-analysis of the deposited data

How the results depend on the processing

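The number of histidine genes that passed stayed within 1.5 times its value under 115 of 119 combinations of test and alternative setting. The tests were the 7 comparisons and the moderated F, which 96% of all tested genes passed in the main fit. A band of 1.5 times is wide for so few genes, and the FPKM setting rests on the same values divided by length. The number moved in SC37 in some fits with 1 library left out. It also moved in YPD24 against SC30, where it was 5 and not 3 with median-of-ratios and with upper-quartile scaling. The share of all tested genes that passed with these 2 scalings is not given here, and the 56% given above is for the authors' scaling. Of 686 differences of single genes, 644 kept their direction and side of the threshold, 17 no longer passed, 11 came to pass and 14 changed sign, none of which had passed. With median-of-ratios scaling, *HIS2* was -0.0038 in SC37, *HIS6* was 0.0587 with NaCl and 0.21 in YPD24 against YPD32, and in YPD24 against SC30 *HIS3* was 0.15 and *HIS7* 0.11. With upper-quartile scaling, the last 4 were 0.0345, 0.21, 0.15 and 0.10. With 1 library left out, *HIS2* was between -0.0260 and 0.0578 in SC37. *HIS6* was then between -0.0071 and 0.14 in YPD32, -0.0589 and 0.0835 in YPD24 against SC30, and -0.12 and 0.0125 in YPD24 against YPD32. A lone library was assumed to vary like the other groups. Over all tested genes, the count that passed in SC37 was 1425, and 888 or 848 without replicate 1 or 2 of SC30 and 917 or 842 without replicate 1 or 2 of SC37. Between YPD24 and YPD32 it was 3000, and 1830 without replicate 1 of YPD32. The FPKM table gave the same order of the genes as counts per kb by construction.
Libraries share replicate numbers across environments, and the written design did not take these numbers as pairs. Deviations of same-numbered libraries correlated over 0.1 in 1 of 15 pairs of environments (from -0.09 to 0.21). That pair was SC30 with SC37. With the replicate block, no call of a histidine gene changed in any of the 7 comparisons. The share of all tested genes that passed with the block is not given here. With 2 libraries a group, small differences could not be told from 0. The lowest scaled count of the histidine genes was 231, and whether depth limited them was not tested.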

Other observations

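The count of *HIS6* was set against the mean of the other 6 histidine genes within each library, on the scale of log2(count + 1). This comparison was chosen after the values were seen and is a description without a test. The difference was -2.17 in each library of SC30, -2.17 and -1.90 in SC37, and -2.32 and -2.17 in YPD24. It was -3.07 and -3.10 in YPD32, -0.66 and -0.57 in YPG, and -0.03 and -0.41 with NaCl. The difference was thus least negative under salt and most negative in YPD32. Counts were not divided by length here, so the size of the difference depends on the lengths of the genes. Only its change between environments can be read.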
